A study of Mus musculus with 483 samples.

Results

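The 27 genes described here are 19 enzymes of cholesterol synthesis and 8 genes that regulate the pathway or carry sterols, out of 46078 genes in the table of counts. They were chosen by name and not by their values, though with earlier results of these data known. All 27 passed the filter on low genes (a read in at least 5% of endothelial cells), as did 14905 genes in all. They were measured in single mouse cells, each labelled either Ctrl or aDll4-treated. Cells carrying the endothelial marker CD31 and the receptor Kit but lacking the blood marker CD45 were purified by flow cytometry from the embryonic region that holds the aorta, gonads and mesonephros. The labels give no genotype, strain, stage, dose or time, and do not explain aDll4; Dll4 itself is a ligand of the Notch receptors. Each cell also carries the number of 1 of 7 ICGS clusters, a grouping deposited by the authors.

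Cells synthesise cholesterol from acetyl-CoA through mevalonate, isoprenoid diphosphates, squalene and lanosterol. When membranes of the endoplasmic reticulum run low in sterol, Scap carries the precursor of the transcription factor SREBP2 (gene Srebf2) to the Golgi, where the proteases Mbtps1 and Mbtps2 release its active part. Insig1 and Insig2 hold Scap back when sterol is plentiful, and most enzymes of the pathway, as well as Insig1, are textbook targets of SREBP2. The pathway is switched on as a block in cells that make membrane, dividing endothelial and blood cells included.

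Clusters 1, 2 and 3 were the endothelial ones. The 10 endothelial markers such as Cdh5, Pecam1 and Kdr summed to 8047, 7004 and 5203 CPM (reads scaled to 1000000 assigned reads) there, against 81.2 to 354.6 CPM in clusters 4 to 7. The labels call every cell a hematopoietic stem cell, but 8 blood markers reached only 89.7 to 211.8 CPM in clusters 1 to 3 against 1454 and 1481 CPM in clusters 6 and 7. Mesenchymal markers were highest in cluster 5 (14850 CPM) and megakaryocyte markers in cluster 7 (9175 CPM). Treatments were compared over the 395 endothelial cells of these clusters (97, 73 and 31 Ctrl cells, and 86, 72 and 36 treated ones), with 10, 6, 14 and 8 Ctrl cells and 12, 7, 19 and 12 treated ones in clusters 4 to 7 left aside. Each treatment is 1 sample because no embryo, animal or culture is named. No test was possible and cells were not used as replicates. The intervals below reflect the error of counting alone, since reads copied by PCR do not stand for separate molecules. The numbers of the libraries form 2 blocks (47 Ctrl and 48 treated endothelial cells in block 2, the others in block 1) and 6 runs of up to 96 numbers, which served to show how far values vary. Reads of Xist and of 4 Y-linked genes show that the blocks also differ in the embryos they hold: among treated cells block 1 held 0 Xist-positive cells and block 2 held 44 of them and 0 Y-positive cells, whereas Ctrl cells were mixed in both (71 and 73 in block 1, 21 and 19 in block 2). A lower level in a sum over cells can mean fewer cells with the transcript or less of it per cell, and these cannot be told apart from sums alone.

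The promoters of 6 members are shown because the results turn on the genes they belong to: 4 enzymes and Insig1, which rose and fell together from cell to cell, and Insig2, which did not follow them. Each is the 250 bases before the annotated start in RefSeq's GRCm38.p6 table, 5′ to 3′. For Insig2 that table holds 3 windows, and the first is shown. Capitals mark CCAAT, the box bound by the factor NF-Y (ATTGG is its reverse complement), and in Hmgcs1 also the sterol regulatory element TCACNCCAC.
Hmgcs1 (chr13:119690101-119690350, plus strand): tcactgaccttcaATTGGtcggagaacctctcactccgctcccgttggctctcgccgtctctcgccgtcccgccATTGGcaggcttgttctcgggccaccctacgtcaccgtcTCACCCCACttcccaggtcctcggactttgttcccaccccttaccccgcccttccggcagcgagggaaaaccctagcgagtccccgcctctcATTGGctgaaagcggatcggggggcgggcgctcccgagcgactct
Idi1 (chr13:8885356-8885605, plus strand): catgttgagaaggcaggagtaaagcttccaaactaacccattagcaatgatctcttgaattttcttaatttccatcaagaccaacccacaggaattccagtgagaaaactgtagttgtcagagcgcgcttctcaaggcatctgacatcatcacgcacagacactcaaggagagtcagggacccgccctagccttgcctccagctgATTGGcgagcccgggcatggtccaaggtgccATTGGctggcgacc
Cyp51 (chr5:4104698-4104947, minus strand): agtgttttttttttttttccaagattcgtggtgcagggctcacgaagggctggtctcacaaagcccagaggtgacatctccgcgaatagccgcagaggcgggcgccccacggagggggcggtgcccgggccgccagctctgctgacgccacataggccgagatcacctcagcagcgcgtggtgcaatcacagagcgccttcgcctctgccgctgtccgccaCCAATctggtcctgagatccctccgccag
Msmo1 (chr8:64733579-64733828, minus strand): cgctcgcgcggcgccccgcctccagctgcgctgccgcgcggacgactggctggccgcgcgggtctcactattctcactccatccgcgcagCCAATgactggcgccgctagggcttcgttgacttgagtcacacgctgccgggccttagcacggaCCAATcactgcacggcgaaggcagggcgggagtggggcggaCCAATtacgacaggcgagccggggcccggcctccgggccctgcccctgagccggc
Insig1 (chr5:28071162-28071411, plus strand): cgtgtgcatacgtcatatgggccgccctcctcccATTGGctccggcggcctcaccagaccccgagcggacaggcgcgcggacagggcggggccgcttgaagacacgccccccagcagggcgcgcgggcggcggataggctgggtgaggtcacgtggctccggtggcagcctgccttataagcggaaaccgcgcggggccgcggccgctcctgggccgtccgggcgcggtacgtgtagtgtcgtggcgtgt
Insig2 (chr1:121332590-121332839, minus strand): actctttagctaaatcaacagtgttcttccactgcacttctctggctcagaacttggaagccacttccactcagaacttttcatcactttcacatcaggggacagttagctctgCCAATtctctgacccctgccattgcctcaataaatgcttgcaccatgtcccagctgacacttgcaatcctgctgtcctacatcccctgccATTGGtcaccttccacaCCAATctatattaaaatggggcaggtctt

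Both motifs were searched on both strands in the 23 members of that table; Fdps, Fdft1, Sqle and Stard4 had no entry. CCAAT stood in 19 of the 23, and in 37.5% of 27025 genes of the table. Hmgcs1 held 3 copies, the nearest 45 bases before the start, and Msmo1 also held 3. Acat2, Scap, Mbtps1 and Mbtps2 held none in this window. The strict letters TCACNCCAC matched only in Hmgcs1, between its CCAAT boxes, and in 1.22% of all genes. A match is a string of letters and not a measured binding site, and Insig2, whose transcript did not follow the enzymes, held 3 CCAAT boxes as well.

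The pathway was expressed at moderate levels in the endothelial cells. Per kilobase of exon, Hmgcs1, which makes HMG-CoA at the entry to the mevalonate branch, was the most abundant member at 96.6 TPM (reads per exon length, scaled to the same total) in Ctrl and 123.03 TPM in treated cells. Msmo1, a sterol methyl oxidase acting after lanosterol, was at 69.8 and 78.8 TPM, and Cyp51, the lanosterol demethylase, at 64.8 and 70.9 TPM. Pmvk and Mvd, a kinase and a decarboxylase of the mevalonate branch, stood at 60.2 and 58.5 TPM in Ctrl cells and at 62.5 and 84.98 TPM in treated ones. At the low end were Idi1 (3.10 TPM in Ctrl), which isomerises isopentenyl diphosphate, Lss (4.21 TPM), which closes the sterol rings to lanosterol, and the reductase Tm7sf2 (4.65 TPM). Counting was ambiguous for some members. Of all 50-base stretches in their annotated transcripts, Idi1 shares 25.3% and Fdps, the farnesyl diphosphate synthase, 26.2% with other genes, largely pseudogenes. Acat2 (39.1%, with Acat3 and Tcp1), Fdft1 (26.5%, mostly with Ctsb) and Mbtps2 (28.9%, with Yy2 among others) are affected too, so their levels are uncertain.

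As a group, members lay close to the background of all genes. Over endothelial cells 16 of the 27 had a higher summed CPM in treated cells and 11 a lower one, while 50.2% of all 14905 measured genes were higher. Their median log2 ratio of treated over Ctrl (1 CPM added to both) was 0.07, beside 0.00 over all measured genes. With a call defined as a ratio at least 0.5 from 0 and of the same sign in both blocks, 2 members were called higher (4.70% of all genes were) and 1 lower (6.96%). These were Ggps1, Mvd and Dhcr7. In all 11 members were higher in both blocks and 6 lower in both, where 26.8% and 26.2% of all genes were.

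**Figure D1:**
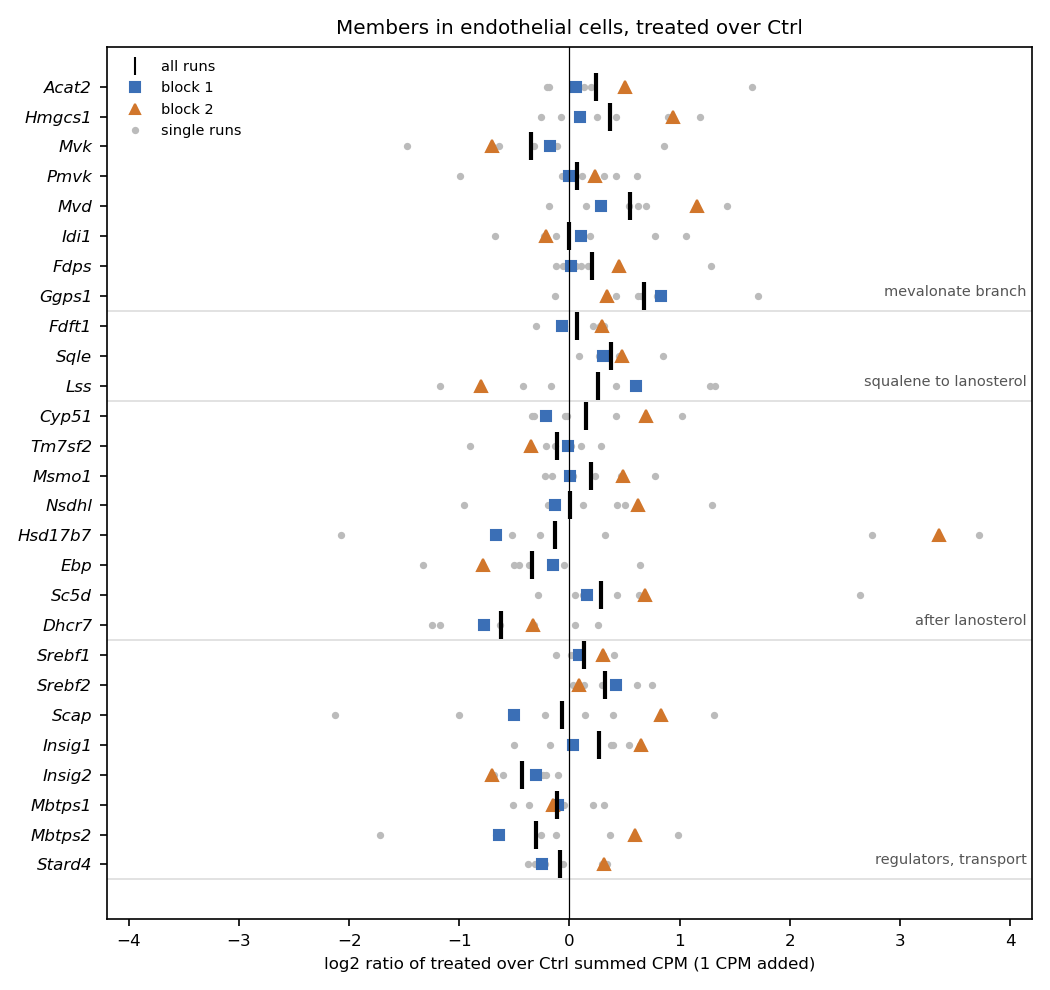
Log2 ratio of treated over Ctrl summed CPM (1 CPM added) for each of the 27 members in endothelial cells, over all runs (black bars), in block 1 (squares), in block 2 (triangles) and in single runs of library numbers (grey points). Most bars lie within 0.5 of 0, and 10 of the 27 members have their 2 blocks on opposite sides of 0.

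In the mevalonate branch 6 of 8 genes were higher in treated cells. Mvd, which decarboxylates mevalonate diphosphate, ranged over the 6 runs from 22.04 through a median of 37.6 to 71.9 CPM in Ctrl and from 44.6 through 59.3 to 84.1 CPM in treated cells. Its pooled level was 40.5 CPM (95% Poisson interval 39.6 to 41.4) in Ctrl and 59.6 CPM (58.4 to 60.8) in treated cells, a log2 ratio of 0.55 (0.29 in block 1, 1.16 in block 2). The ranges overlapped, and treated was higher in 5 of 6 runs. Ggps1, which makes the geranylgeranyl diphosphate used to anchor small GTPases in membranes, ranged from 14.9 through 21.004 to 35.98 CPM in Ctrl and from 21.2 through 35.4 to 56.1 CPM in treated cells. Its pooled 23.6 and 38.2 CPM gave a log2 ratio of 0.68 (0.83 and 0.34), with overlapping ranges and 5 of 6 runs higher. A read of Ggps1 was seen in 54.7% of Ctrl cells (Clopper-Pearson 47.6 to 61.7%) and 66.5% of treated cells (59.4 to 73.1%). The difference sat in cluster 1, where the level was 15.999 CPM in Ctrl cells and 47.6 CPM in treated ones; in cluster 2 it was 34.8 and 30.8 CPM.

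Hmgcs1 stood at 113.7 to 236.96 CPM in Ctrl runs (median 154.2) and 143.5 to 286.3 CPM in treated runs (median 210.1). The pooled levels of 165.3 CPM (163.5 to 167.2) and 213.3 CPM (211.05 to 215.5) differed by 0.37 on the log2 scale, by 0.09 in block 1 and 0.94 in block 2. Run ranges overlapped widely and only 4 of 6 runs were higher. Acat2, which condenses acetyl-CoA, had a ratio of 0.24, Fdps of 0.21, Pmvk of 0.07 and Idi1 of −0.01. Mevalonate kinase, Mvk, was at 24.8 CPM in Ctrl cells and 19.2 CPM in treated ones and lower in 5 of 6 runs.

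All 3 enzymes between farnesyl diphosphate and lanosterol had a ratio above 0. Sqle, the squalene epoxidase and a slow step of the pathway, ranged from 82.3 through 99.8 to 132.7 CPM in Ctrl and from 113.8 through 137.8 to 183.003 CPM in treated runs. Treated was higher within each of the 6 runs, which 2.23% of all genes were, although the ranges overlapped across runs. Its pooled 106.6 and 138.6 CPM gave a log2 ratio of 0.38 (0.31 and 0.47 in the blocks), below the size set for a call. Among Xist-positive cells of block 2 alone the ratio was 0.05, and Ctrl cells of that kind carried more Sqle than Y-positive Ctrl cells there (log2 ratio 1.03), while in block 1 they carried less (−0.33). Fdft1, the squalene synthase, was level at 84.6 and 88.8 CPM, and Lss (16.9 and 20.5 CPM) was higher in block 1 and lower in block 2.

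After lanosterol 4 of 8 enzymes were higher and 4 lower. Dhcr7, the reductase of the last step to cholesterol, ranged from 26.8 through 48.7 to 59.8 CPM in Ctrl runs and from 18.2 through 33.04 to 47.5 CPM in treated runs. The pooled 49.3 CPM (48.3 to 50.3) and 31.7 CPM (30.9 to 32.6) differed by −0.62 on the log2 scale (−0.78 and −0.33 in the blocks). Ranges overlapped, and treated was lower in 4 of 6 runs. Cyp51 was at 106.6 and 118.1 CPM, lower in block 1 (−0.21) and higher in block 2 (0.70). Msmo1 was at 159.85 and 182.75 CPM, with ratios of 0.01 and 0.48 in the blocks. Sc5d, a desaturase, had a ratio of 0.29, Nsdhl, a dehydrogenase, of 0.01, Tm7sf2 of −0.11, Hsd17b7, a ketoreductase, of −0.13 and Ebp, an isomerase, of −0.34. Hsd17b7 was read in only 15.4% of Ctrl and 18.6% of treated cells, and its block ratios of −0.67 and 3.35 rest on few cells. Nsdhl and Ebp, like Mbtps2, lie on the X chromosome, and their log2 ratios of Xist-positive over Y-positive Ctrl cells were 2.35, 1.59 and 0.71 in block 2 but 0.04, −0.53 and −0.36 in block 1.

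None of the 8 regulators was called. Srebf2 ranged from 37.6 through 50.3 to 67.7 CPM in Ctrl and from 60.2 through 63.2 to 69.4 CPM in treated runs, higher in each of the 6 runs. Its pooled 50.9 and 63.8 CPM gave a log2 ratio of 0.32 (0.42 and 0.09), and in Xist-positive cells of block 2 it was −0.25. Insig2, the retention protein that is not a textbook SREBP2 target, went the other way. It stood at 25.2 to 55.3 CPM in Ctrl runs (median 34.5) and 22.9 to 34.04 CPM in treated runs (median 26.5), lower within each of the 6 runs, as 1.91% of all genes were. The pooled 37.5 and 27.5 CPM gave −0.43, but in Y-positive cells of block 1 the ratio was −0.04. Insig1 was at 46.2 and 55.8 CPM (0.27; 0.03 and 0.65 in the blocks) and Srebf1, which drives fatty acid synthesis, at 46.1 and 50.7 CPM (0.14). Scap, the sterol sensor that escorts SREBP, was at 23.04 and 21.92 CPM, with −0.50 in block 1 and 0.83 in block 2. Mbtps1, Mbtps2 and Stard4, a carrier of free sterol, had ratios of −0.11, −0.31 and −0.09.

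The 19 enzymes together showed where the blocks parted. In block 1 their summed level was 1016 CPM in Ctrl cells and 1043 CPM in treated ones, and in block 2 1018 and 1434 CPM. The treated cells of run 6 were the highest of all at 1502 CPM, beside 877 CPM in Ctrl cells of that run, the lowest. Block 2 alone put 19 of 27 members higher (51.6% of all genes), with a median of 0.34, and block 1 put 13 higher (48.9%), with a median of −0.01. Within cells of 1 sex the block 1 difference turned and that of block 2 was smaller. Y-positive cells of block 1 stood at 1126 CPM in Ctrl cells and 1055 CPM in treated ones, with 20 of 27 members lower in treated (49.8% of all genes), and Xist-positive cells of block 2 at 1266 and 1484 CPM. Ctrl cells of block 2 differed by as much among themselves, from 799 CPM in 19 Y-positive cells to 1266 CPM in 21 Xist-positive cells, with no treatment between them. In Ctrl cells of block 1 the order was the opposite, with 1126 CPM in 73 Y-positive cells and 915 CPM in 71 Xist-positive ones. The part of embryo and sex in the block 2 difference was not tested beyond these values.

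**Figure D2:**
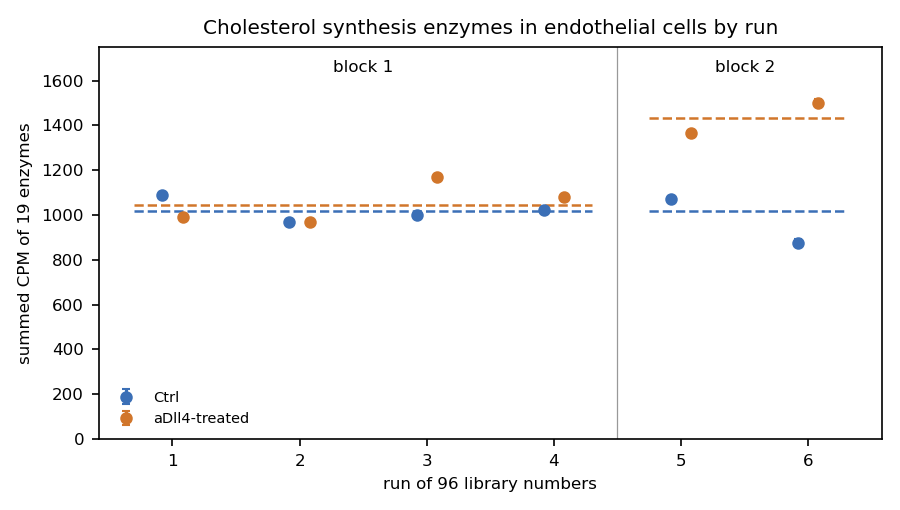
Summed CPM of the 19 enzymes in endothelial cells for each run of library numbers, Ctrl in blue and treated in orange, with 95% Poisson intervals that are smaller than the points; dashed lines are the pooled level of each block. Treated lies below Ctrl in run 1 (991 against 1090 CPM) and close to it in run 2 (971 against 968 CPM). It lies above Ctrl in run 3 (1169 against 999.5 CPM) and run 4 (1079 against 1022 CPM). In runs 5 and 6 it lies further above (1365 against 1073 CPM and 1502 against 877 CPM).

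Across the 7 clusters the enzymes were lowest in cluster 6, where blood markers were high, at 704 CPM, and highest in cluster 4 at 1623 CPM. The other clusters lay between 969 CPM (cluster 1) and 1396 CPM (cluster 7). Clusters were built on these cells, so their levels are a description. Cluster 6 held the lowest level of 10 of the 19 enzymes, yet it had the highest level of Scap (75.9 CPM). Among the 10 were Hmgcs1 (103.95 CPM, against 356 CPM in cluster 4), Cyp51 (60.7 CPM) and Sc5d (15.2 CPM). The share of all genes lowest in cluster 6 was not computed, so this count is not read as particular to the enzymes. The median number of genes per cell was 8454 in cluster 6, the most of any cluster, and 7932.5 in cluster 4. S phase genes were highest in cluster 6 too (5019 CPM, against 2298 to 3907 CPM elsewhere). G2 and M phase genes were highest in cluster 4 (5144 CPM, against 2581 to 3850 CPM elsewhere). The part of depth and cell cycle in the cluster levels was not tested. The lowest cluster was number 6 under each of the 7 other settings tried, and the highest was number 4 under all but 1: in Ctrl cells alone cluster 7 led with 1446 CPM, cluster 4 holding just 10 Ctrl cells.

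Cluster 1 and cluster 2, the largest endothelial clusters, had summed levels that differed in opposite directions between the treatments. In cluster 1 (97 Ctrl and 86 treated cells) the enzymes were at 1013 CPM in Ctrl cells and 918 CPM in treated ones, and in cluster 2 (73 and 72 cells) at 1009 and 1372 CPM. Both directions recurred in both blocks: 997 and 902 CPM in block 1 and 1059 and 978 CPM in block 2 for cluster 1, 981 and 1260 CPM and 1113 and 1581 CPM for cluster 2. Of the 27 members 8 were higher in cluster 1 (48.3% of all genes) and 18 in cluster 2 (51.5%), with medians of −0.19 and 0.35. By sign alone, with no limit on size, 8 enzymes were lower in cluster 1 and higher in cluster 2 in both blocks (7.06% of all genes). They were Acat2, Hmgcs1, Fdft1, Tm7sf2, Msmo1, Nsdhl, Hsd17b7 and Sc5d. Sizes differed widely among them. Log2 ratios of Hmgcs1 in blocks 1 and 2 were −0.24 and −0.27 for cluster 1, and 0.41 and 0.59 for cluster 2. That of Acat2 in block 1 of cluster 1 was only −0.01. Hsd17b7 had almost no reads in block 2 of cluster 1 (Ctrl 0.34 CPM, treated 0 CPM). In block 2 of cluster 2 its Ctrl level was 0 CPM and its treated level 26.05 CPM. The enzymes rose and fell together from cell to cell, as described below, so the 8 are not separate observations. The breakdown by cluster was chosen after the data were seen, and the difference between the clusters was not tested.

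Single genes show the contrast. Msmo1 stood at 161.5 CPM in Ctrl cells and 139.99 CPM in treated ones of cluster 1, and at 130.9 and 213.5 CPM in cluster 2. Hmgcs1 stood at 158.9 and 133.8 CPM in cluster 1, and at 191.1 and 271.2 CPM in cluster 2. Srebf2 was higher in treated cells of both clusters with blocks pooled. It stood at 59.4 and 68.1 CPM in cluster 1 and at 42.7 and 66.2 CPM in cluster 2. In block 2 of cluster 1 its ratio was −0.02. Dhcr7 was lower in both clusters with blocks pooled, at 51.9 and 28.5 CPM and at 42.6 and 36.6 CPM. Within cluster 2 its ratio was −0.39 in block 1 but 1.31 in block 2 (12.7 and 33.04 CPM). Insig2 was level in cluster 1 at 38.3 and 38.2 CPM and lower in cluster 2 at 37.8 and 16.96 CPM, though in block 2 of that cluster its ratio was 0.72.

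Where both treatments held cells of 1 sex, the directions were the same. Y-positive cells of block 1 went from 1296 CPM in Ctrl to 900 CPM in treated cells of cluster 1, and from 919 to 1340 CPM in cluster 2. Xist-positive cells of block 2 went from 1352 to 994 CPM in cluster 1 and from 1377 to 1613 CPM in cluster 2, the latter with only 4 Ctrl cells. Ctrl cells of cluster 1 differed by more among themselves: the other Ctrl cells stood at 748 CPM in block 1 (43 Xist-positive cells) and 586 CPM in block 2 (6 Y-positive cells), below the treated cells of the same block. The direction in cluster 1 therefore depends on which Ctrl cells are compared, and the part of embryo and sex in it was not tested. By run the pattern was less even, treated enzymes being higher in 3 of 6 runs in cluster 1 and in 5 of 6 in cluster 2. In cluster 1 the median over single cells did not share the direction of the sum (670 CPM in Ctrl cells and 727 CPM in treated ones). In cluster 2 the cell medians were 800 and 985 CPM. Cluster 3 (31 and 36 cells) was lower in block 1 (1297 and 1081 CPM) and higher in block 2 (875 and 1785 CPM).

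**Figure D3:**
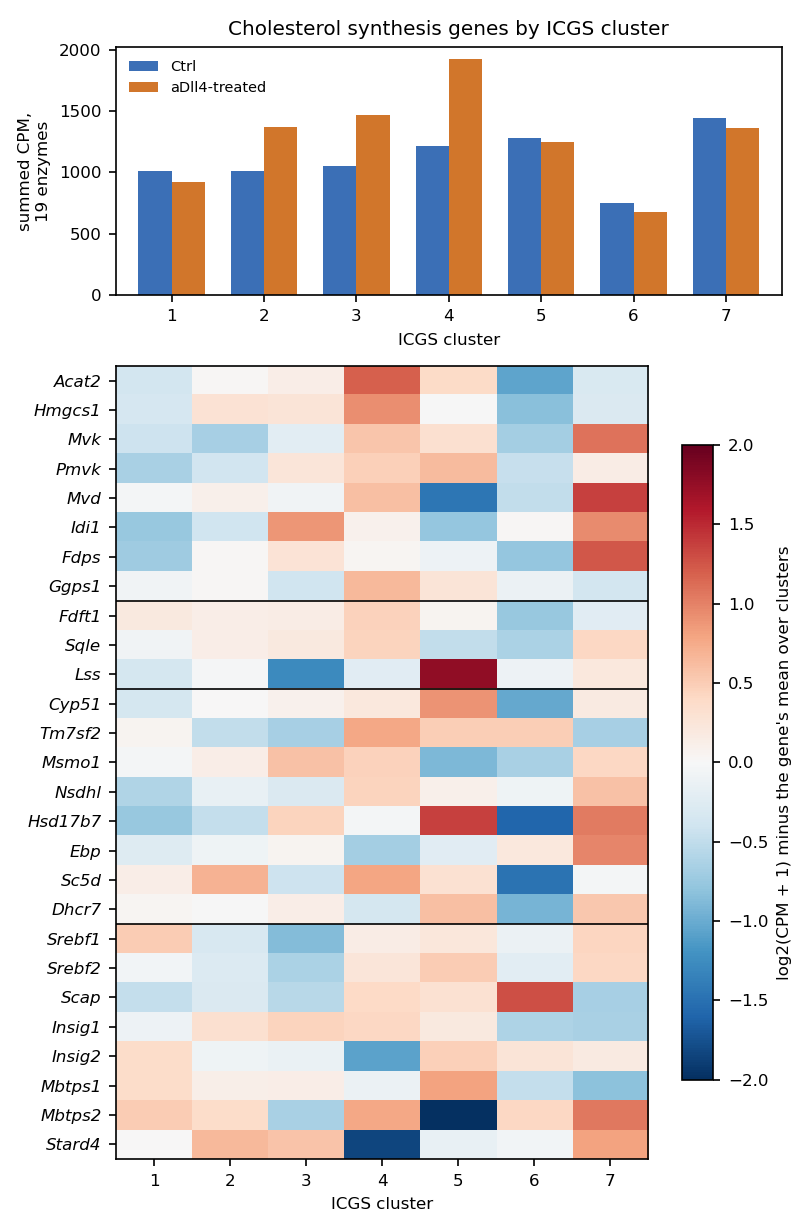
Top, summed CPM of the 19 enzymes in each ICGS cluster for Ctrl (blue) and treated (orange) cells. Bottom, log2(CPM + 1) of each member in each cluster minus the gene's mean over clusters, red above and blue below; cluster 6 is blue for most enzymes.

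From cell to cell the enzymes rose and fell together. Spearman's rho between genes was computed within each of the 4 combinations of treatment and block and averaged by the number of cells, 395 in all; cells of 1 combination share libraries, depth and embryos, and no p is given. Among 7 enzymes that are classical SREBP2 targets (Hmgcs1, Idi1, Fdft1, Sqle, Lss, Cyp51 and Msmo1) the median rho of the 21 pairs was 0.33. All 21 were above 0 in each of the 4 combinations, and 20 exceeded 0.194, the 99th percentile of the 111072060 pairs of measured genes. Allowing for reads and genes per cell left the median at 0.31. The 7 were picked with earlier results of these data known, and no rule for the choice was set beforehand. The pairs of all measured genes were not matched to the enzymes in level or in the share of cells with a read. Over all pairs of the 19 enzymes the median was 0.17 and 69 pairs (40.4%) exceeded that percentile; over all pairs of measured genes the median was 0.04.

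The tightest pair was Hmgcs1 with Msmo1, at 0.49, from 0.30 to 0.52 in the 4 combinations. Sqle with Msmo1 reached 0.45 and Idi1 with Msmo1 0.43. For Hmgcs1, Sqle, Cyp51, Msmo1 and Dhcr7, none of 14878 genes outside the list correlated better than the best partner within it. For 15 of the 27 members at most 3 outside genes did. Median rho among the 7 was similar in each combination, at 0.36 and 0.33 in block 1 and 0.30 and 0.35 in block 2 for Ctrl and treated cells.

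Insig1 moved with the enzymes (0.42 with Msmo1, 0.38 with Sqle, 0.37 with Hmgcs1), and most other regulators stood apart. Stard4 reached 0.21 with Msmo1 and 0.20 with Hmgcs1. Among the 28 pairs of regulators the median rho was 0.06 and 1 pair, Srebf2 with Insig1 at 0.21, exceeded 0.194. Srebf2 reached 0.24 with Dhcr7. Insig2 had a rho of −0.10 with Hmgcs1 and −0.08 with Sqle, and Ggps1 stayed near 0 with most enzymes (0.01 with Sqle). Scap, Mbtps1, Mbtps2 and Ebp likewise had no partner above 0.16 in the list.

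**Figure D4:**
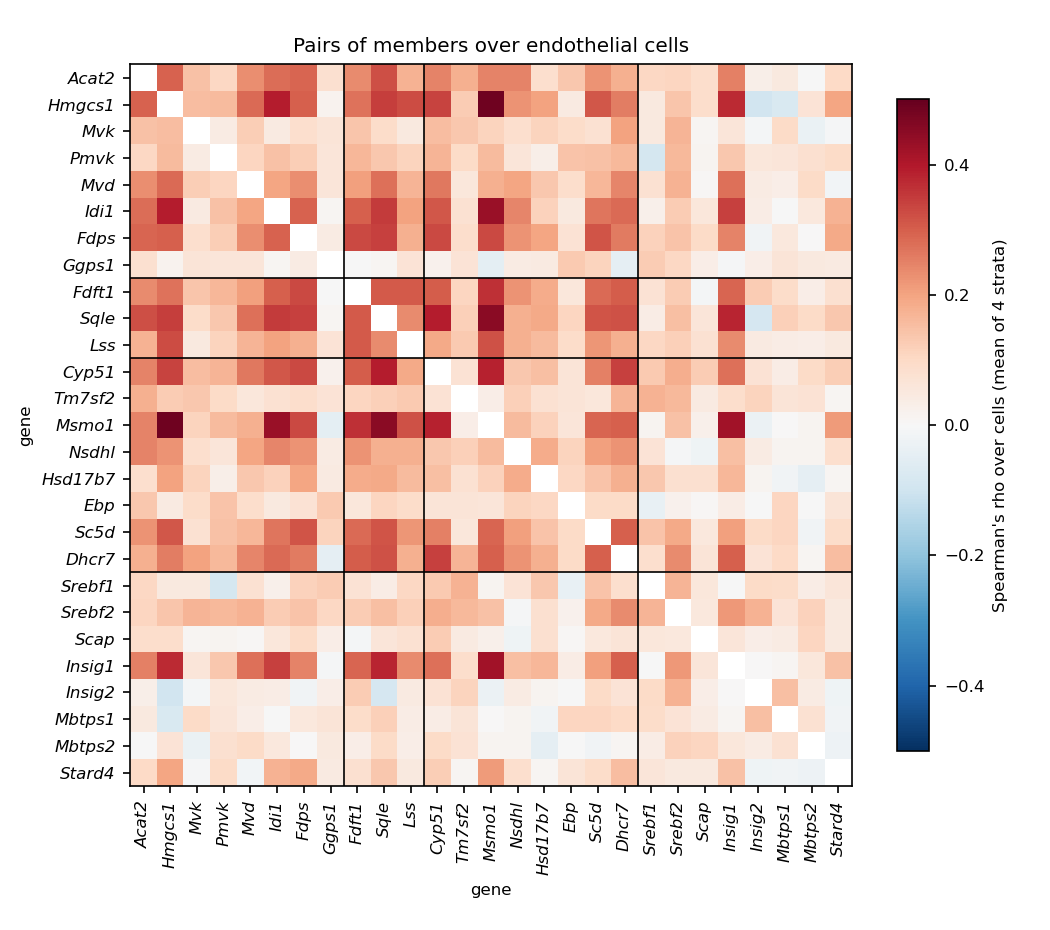
Spearman's rho over 395 endothelial cells for each pair of members, as the mean of the 4 combinations of treatment and block weighted by cells; lines separate the mevalonate branch, squalene to lanosterol, the steps after lanosterol, and the regulators. Red fills the rows of Hmgcs1, Idi1, Sqle, Cyp51, Msmo1 and Insig1, and the rows of Ggps1, Insig2, Scap, Mbtps1 and Mbtps2 are pale.

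The score over the 19 enzymes, the mean of their log2(CPM + 1), also tracked depth and cell cycle: rho was 0.50 with genes per cell, 0.34 with reads per cell, 0.35 with the S phase score and 0.20 with the G2 and M phase score. Outside the list, the genes whose lowest rho with the score over the 4 combinations was highest included Vcp-rs (0.34), Actb (0.33), Snrpd3 and Ciapin1 (0.30 each), Eif5a (0.30) and the fatty acid desaturase Fads2 (0.29).

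Runx1, the transcription factor that turns hemogenic endothelium to blood, was read in 34 endothelial Ctrl cells (16.9%) and in 36 treated ones (18.6%). Its sum of 11.2 CPM in Ctrl cells and 7.17 CPM in treated ones rests on few cells, 1 cell holding up to 23.2% of the reads, and its ratio was 1.34 in block 1 and −2.07 in block 2. The enzyme score had a rho of −0.07 with Runx1 (−0.02 and −0.08 in Ctrl cells of blocks 1 and 2, −0.15 and 0.04 in treated cells). In treated cells of block 1, the 23 cells with a Runx1 read had a mean score of 2.73 (SD 1.22) and those without one 3.16 (SD 1.25); in the other combinations the means lay within 0.12 of each other. With the 7 SREBP2 targets alone rho was −0.14, and between −0.25 and −0.003 in the combinations. Single members ranged from −0.12 (Msmo1) to 0.07 (Pmvk), 17 below 0 and 10 above, and the 10th to 90th percentile of all genes ran from −0.07 to 0.07. In counts this sparse, values of this size are not read as a relation.

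Hes1, a repressor induced by Notch, was lower in treated cells in each of the 6 runs, with 103.5 CPM and 60.9 CPM (log2 ratio −0.76, with −0.77 and −0.72 in the blocks). Hey1, another such repressor, was at 241.1 and 121.9 CPM but opposite in the blocks (−1.91 and 1.04). Treated cells of run 5, in block 2, stood at 316.6 CPM, the next highest treated run at 128.2 CPM. The enzyme score had a rho of 0.09 with Hes1 and 0.09 with Hey1. For Hes1 it was 0.04 and 0.43 in Ctrl cells of blocks 1 and 2 and 0.08 and −0.06 in treated cells, and given reads and genes per cell it fell to 0.01. For Hey1 the values were 0.12, 0.13, −0.03 and 0.35. Srebf2 had the highest value of any member with Hes1, 0.15, above 0 in each combination (0.10 to 0.24). Hmgcs1 had the highest with Hey1, 0.16 (0.01 to 0.34). The members' median was 0.04 with Hes1 and 0.05 with Hey1. For all genes the 10th to 90th percentile ran from −0.04 to 0.12 with Hes1 and from −0.08 to 0.10 with Hey1. Each maximum is the highest of 27 values and is not read as a relation.

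**Figure D5:**
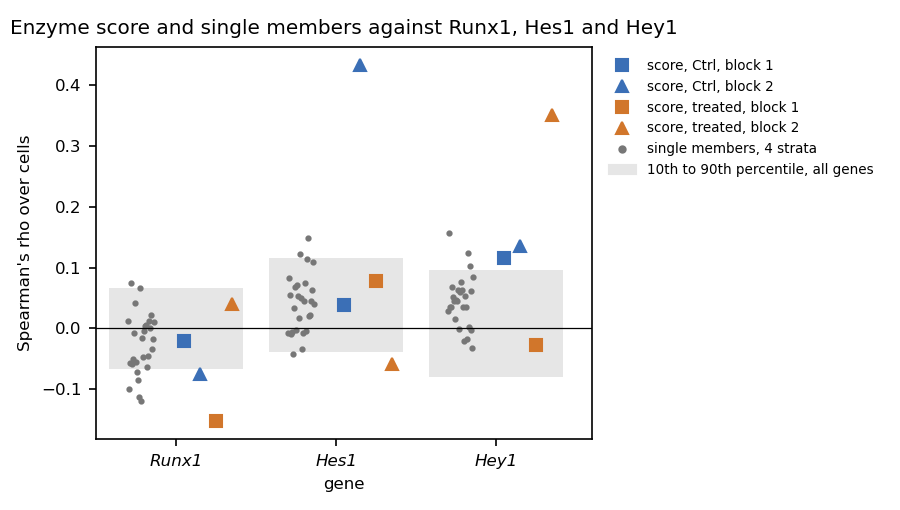
Spearman's rho over endothelial cells of the enzyme score with Runx1, Hes1 and Hey1 in each combination of treatment (colour) and block (squares and triangles), with single members as grey points and the 10th to 90th percentile of all measured genes as grey bands. The 4 values of the score scatter on both sides of 0 for each gene, and the highest value for Hes1 and for Hey1 comes from the smaller block 2.

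Neighbouring pathways were described from lists chosen beside the members. Of 13 measured genes of SREBP1 and fatty acid synthesis 8 were higher (50.2% of all genes) and 0 were called, with a median of 0.03. Fasn was at 72.7 and 79.5 CPM. Of 7 measured LXR and efflux genes 3 were higher and 4 lower, with a median of −0.12 (0.00 over all genes). Of these 2 were called lower, as 6.96% of all genes were, and 0 higher; the 2 were Apoe, a lipoprotein (222.2 and 114.4 CPM, −0.95), and Abca1, the exporter of cholesterol (109.6 and 67.9 CPM, −0.68). Lipa, the lysosomal lipase that frees cholesterol from its esters, was the only one called of 10 uptake and storage genes (128.65 and 73.1 CPM, −0.81). Of 8 genes of sterol-regulated degradation 6 were lower (49.8% of all genes) and 2 higher, and 1, Erlin2, was called lower (66.99 and 45.5 CPM). Erlin1 was higher (17.05 and 24.5 CPM), its ratio of 0.498 falling just short of a call. Of 13 genes that use isoprenoids and 4 SREBP partner factors, 0 were called. Of 18 S phase genes 15 were higher (50.2% of all genes) and 2 were called higher (4.70% of all genes). Their median was 0.15 and their sums were 2606 and 2826 CPM. Of 14 G2 and M phase genes 10 were lower (49.8% of all genes) and 0 were called, with a median of −0.10. Mesenchymal markers summed to 64.8 CPM in Ctrl and 99.6 CPM in treated endothelial cells, blood markers to 127.96 and 102.3 CPM, erythroid markers to 1.87 and 5.75 CPM and megakaryocyte markers to 7.82 and 14.1 CPM. Their part in the members' values was not tested.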

How the data were processed

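The authors deposited raw counts, 1 table of whole numbers with a row per gene and a column per cell. The submitters' processing notes name mm10 as the build, GSNAP as a tool and HTSeq (0.6.0) as the other; neither annotation nor counting settings are stated in the sources at hand. Per the labels' protocols, Smart-seq2 cDNA was made into Nextera XT libraries, which carry no molecular identifiers or strand. Endothelial cells held 123097 to 2870618 gene-assigned reads (median 875380 in Ctrl, 838945 in treated). All cells were kept, without a doublet caller. Symbols and exon lengths came from GENCODE M21, with a symbol for 45031 identifiers, and promoters from RefSeq.

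Counts were summed over cells and scaled to CPM, with exact Poisson and Clopper-Pearson 95% intervals. With 1 sample per treatment no test was run. Block 1 holds library numbers below 20000 and block 2 those above 22000. A cell with 10 or more reads was called Xist-positive or Y-positive. Named were members called by the fold rule, the 4 most abundant, Hmgcs1, Sqle, Cyp51, the SREBP, Scap and Insig genes, Runx1, Hes1 and Hey1, from each other list at most 3 genes, those whose mean log2(CPM + 1) differed most, and 8 genes most like the enzyme score, of which 2 are not reported here. Members and lists were chosen with earlier results of these data known. Calculations used Python 3.11.15 with numpy 2.4.6 and scipy 1.17.1, and the scripts were tested on simulated data; alternative scalings came from edgeR 4.0.16 and DESeq2 1.42.0 in R 4.3.3.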

Additional observations from a re-analysis of the deposited data

How the results depend on the processing

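Under 25 alternatives (cells, scaling, pseudocount, depth, blocks, runs, sex and clusters) the members' median log2 ratio stayed within the spread between runs in 21. It was 0.34 in block 2 only, −0.15 in Y-positive cells of block 1, −0.19 in cluster 1 alone and 0.35 in cluster 2 alone. The count of members lower in treated cells, 11 in all endothelial cells, was 20 in Y-positive cells of block 1 and 19 in cluster 1 alone. The 3 called members became 5 by the difference in mean log2(CPM + 1) (4.59% of all genes), 6 in block 1 only (16.2%), 14 in block 2 only (36.4%), 6 in Y-positive cells of block 1 (23.2%) and 17 in Xist-positive cells of block 2 (43.05%); these block and sex counts carry no condition on the other block. They became 7 in cluster 1 alone (16.5%), 12 in cluster 2 alone (18.8%) and 9 in cluster 3 alone (30.7%). Ggps1 reversed in cluster 2 alone (−0.17), whereas Mvd and Sqle stayed above 0 and Dhcr7 and Insig2 below 0 under all 25. With each run left out in turn, Mvd kept 0.38 to 0.76, Ggps1 0.42 to 0.82 and Dhcr7 −0.73 to −0.49. Of 16 alternatives each, rho of the enzyme score ran from −0.14 to −0.02 with Runx1, from 0.01 to 0.18 with Hes1 and from 0.02 to 0.24 with Hey1, the last in block 2 only. The cause of these shifts was not tested. No paired analysis was possible because each treatment is 1 sample and no embryo is labelled. Depth limits genes read in few cells, such as Hsd17b7 and Runx1 (15.4% and 16.9% of Ctrl cells).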

Other observations

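A few values stood apart from the other runs of their treatment. Sc5d in Ctrl cells of run 6 was at 7.82 CPM, the next lowest Ctrl run being at 46.8 CPM. Acat2 and Insig1 in treated cells of run 6 were at 96.90 and 96.01 CPM, with 53.5 and 58.9 CPM next below. Idi1 in Ctrl cells of run 5 was at 8.42 CPM and the next run at 4.26 CPM. Runx1 in Ctrl cells of run 5 was at 41.97 CPM, the next highest Ctrl run being at 13.6 CPM. Hey1 in treated cells of run 5 was at 316.6 CPM, with 128.2 CPM next below. Runs are blocks of library numbers and not samples, so these are given as values alone.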
